A study of Homo sapiens with 6 samples.

Results

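The genes described here are 36 core and receptor genes of macroautophagy, chosen by name for their function and found as 36 rows among the 63241 genes of the deposited table. They were measured by RNA sequencing in T24, a widely used cell line from a human bladder carcinoma. The cells received a non-targeting small interfering RNA (siNC, 3 libraries, genotype given as WT) or small interfering RNA against the deubiquitinase gene USP43 (siUSP43, 3 libraries, given as USP43 knockdown). All 6 libraries carry the same batch label, were grown in RPMI 1640 with serum, and received no drug that the labels name. Whether the libraries of a group came from separate cultures is not stated, and the p-values therefore reflect the spread among these 6 libraries alone, which may be technical. They also give no time after transfection and no duplex sequence, and do not say whether the 3 siUSP43 libraries received the same duplex. The study asked how USP43 bears on lipid metabolism in bladder cancer.

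Macroautophagy encloses cytoplasm in a double-membraned autophagosome that fuses with the lysosome. The ULK1 kinase complex starts the process, and the PIK3C3 lipid kinase complex then marks the membrane with phosphatidylinositol 3-phosphate, which WIPI proteins bind. ATG9A and the ATG2 proteins supply lipid, a ubiquitin-like conjugation system attaches Atg8 proteins (the LC3 and GABARAP families) to the membrane, and receptors such as SQSTM1 (p62) link cargo to those Atg8 proteins. Many steps of this pathway are set by phosphorylation and protein turnover, which RNA levels do not show.

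Library totals ran from 21430574 to 25577200 counts. USP43 itself was at 2.36, 2.09 and 2.08 FPKM (fragments per kilobase of exon, scaled to library depth) in siNC and at 1.02, 0.67 and 0.80 in siUSP43, a log2 fold change of -1.40 (SE 0.14, adjusted p = 5.63e-06; -0.80 with limma on log2(FPKM + 1)), with p = 0.1 in an exact permutation test (two-sided), the smallest possible with 3 against 3. Of 6 epithelial markers 4 had a mean of at least 1 FPKM, with CDH1 at or near 0 in every library, while 0 of 5 fibroblast, 0 of 5 immune and 0 of 4 endothelial markers reached that level. The summed epithelial markers ran from 524 to 541 FPKM in siNC and from 466 to 530 in siUSP43.

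Autophagy genes changed in both directions and by little. Of the 36 genes, 34 had a mean of at least 1 FPKM over the 6 libraries and were tested. Of these 34, 13 rose, 5 fell and 16 did not pass (edgeR quasi-likelihood test, Benjamini-Hochberg adjusted p under 0.05 over all 11417 genes tested). Those 18 are 52.9% of the tested autophagy genes, beside 56.1% of all tested genes, so the share called is near the background. The split by direction was 38.2% higher and 14.7% lower, beside 28.0% and 28.1% of all tested genes. The median log2 fold change was 0.11, beside -0.01 for all tested genes, and the median absolute value was 0.19, beside 0.24. BECN1, ATG10 and WIPI1 were the only tested members with an absolute value of at least 0.5, a size that 20.1% of all tested genes reached. The FPKM values of the 2 groups did not overlap for 21 of the 34 genes (61.8%), beside 62.2% of all tested genes. Without the third siUSP43 library 14 rose and 5 fell, with 16 of the 18 calls shared. Without the third siNC library 11 rose and 3 fell, with 14 shared, and without the second siUSP43 library 13 rose and 3 fell, with 16 shared.

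**Figure D1:**
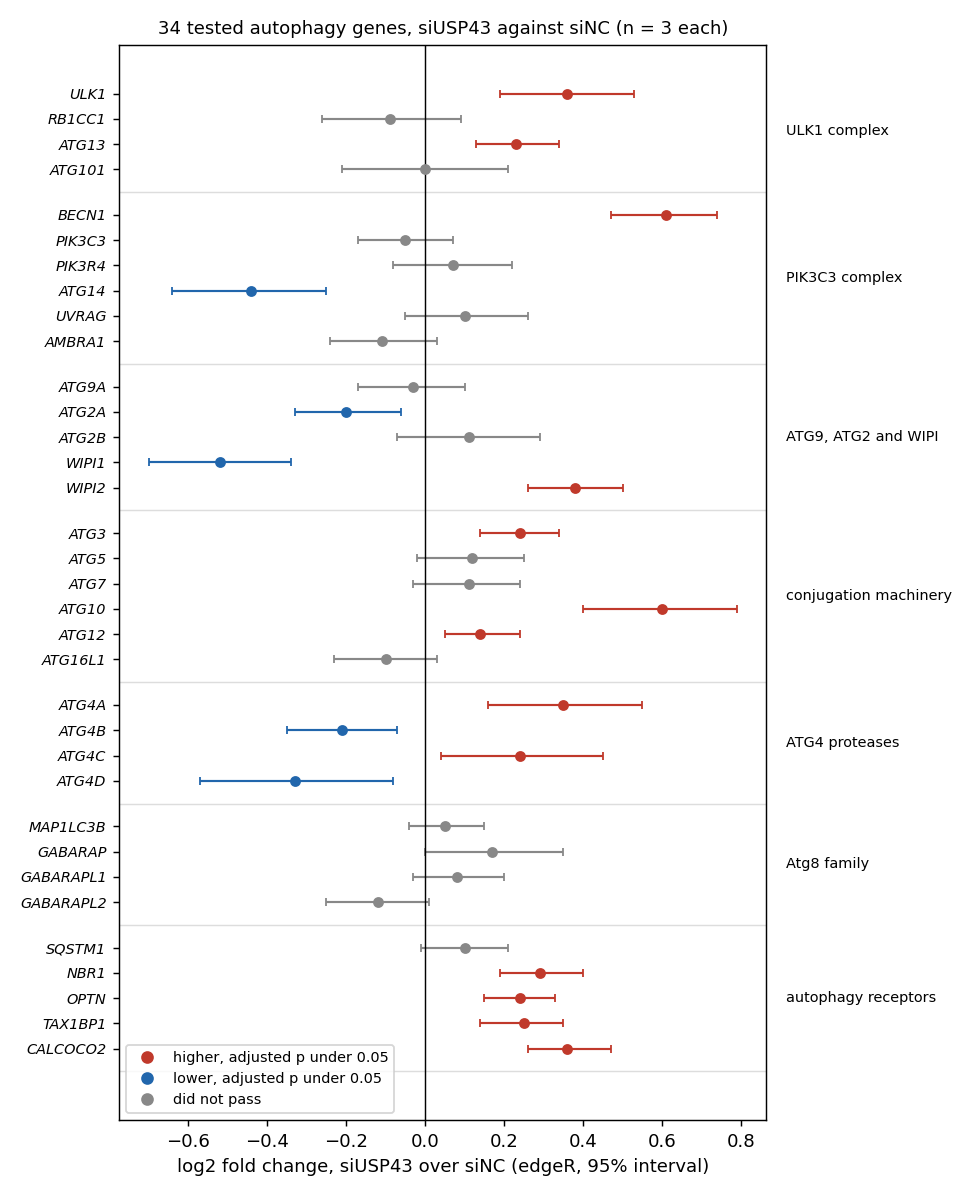
Log2 fold change of the 34 tested autophagy genes, siUSP43 over siNC, with the 95% interval from the edgeR fit (n = 3 libraries in each group). Red points rose and blue points fell at an adjusted p under 0.05, and grey points did not pass. All points lie between -0.52 (WIPI1) and 0.61 (BECN1), 4 of the 5 receptors are red, and the 4 Atg8 genes are grey.

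The initiating kinase complex rose in part. ULK1, the kinase that starts autophagosome formation (GRCh38 chromosome 12, 131894622 to 131923150, plus strand), was at 3.52, 4.32 and 3.77 FPKM in siNC and at 5.22, 5.15 and 4.72 in siUSP43. Every siUSP43 library lay above every siNC library. The log2 fold change was 0.36 (SE 0.08, adjusted p = 0.00225). ATG13, the regulatory subunit that binds ULK1, rose by 0.23 on the log2 scale, from 8.98 ± 0.336 FPKM to 10.7 ± 0.0945 (SD, n = 3 each; SE of the log2 value 0.05, adjusted p = 0.00172). The scaffold subunit RB1CC1 (FIP200) had -0.09, with a 95% interval from -0.26 to 0.09. It was at 15.05, 15.22 and 12.89 FPKM in siNC and at 13.11, 12.56 and 15.44 in siUSP43, so the third siUSP43 library was the highest of all 6, and without it RB1CC1 passed as lower with -0.18. ATG101, the partner of ATG13, had a value of 0.00 with an interval from -0.21 to 0.21.

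ULK2, the paralog of ULK1, was below the filter at 0.23, 0.20 and 0.27 FPKM in siNC and 0.52, 0.50 and 0.48 in siUSP43, from 58 to 152 counts per library. The siUSP43 values were all higher. With edgeR's filterByExpr in place of the FPKM filter ULK2 was tested and passed, with a log2 fold change of 1.08 (SE 0.15, adjusted p = 3.36e-05). ULK1 remained the more abundant paralog per length in every library, 14.0 to 21.6 times ULK2 in siNC and 9.83 to 10.3 times in siUSP43.

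Of the 6 genes of the PIK3C3 lipid kinase complex 1 rose, 1 fell and 4 did not pass. This is 33.3% called, beside 56.1% of all tested genes. BECN1 (Beclin 1, chromosome 17, 42810134 to 42833350, minus strand) is the scaffold shared by the autophagy and endosomal forms of the complex. It was at 5.77, 5.49 and 5.04 FPKM in siNC and at 8.21, 8.38 and 8.49 in siUSP43. The groups stood well apart, and the 3 siUSP43 libraries lay close together. The log2 fold change of 0.61 (SE 0.06, adjusted p = 7.45e-06), or 1.52-fold, was the largest rise among the tested members. ATG14 (chromosome 14, 55366391 to 55411830, minus strand), the subunit that directs the complex to autophagosome formation, went the other way, from 4.55, 4.64 and 3.93 FPKM to 3.51, 2.87 and 3.35. Its siUSP43 values all lay below the siNC values, a log2 fold change of -0.44 (SE 0.09, adjusted p = 0.00114). UVRAG, which takes the place of ATG14 in the endosomal form, had 0.10 with an interval from -0.05 to 0.26. The catalytic subunit PIK3C3 had -0.05 (-0.17 to 0.07), the kinase-like subunit PIK3R4 0.07 (-0.08 to 0.22) and the regulator AMBRA1 -0.11 (-0.24 to 0.03), and none of these 3 passed. The ratio of BECN1 to ATG14 in FPKM was 1.27, 1.18 and 1.28 in siNC and 2.34, 2.92 and 2.53 in siUSP43.

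Strand use in the counting was not given, and both genes lie over a neighbour on the opposite strand. BECN1 shares 8966 bases with PSME3, a proteasome activator gene at 47.0 FPKM in siNC and 50.5 in siUSP43. The log2 fold change of PSME3, 0.09, missed the threshold. ATG14 shares 3663 bases with FBXO34, which fell by 0.88 on the log2 scale. In GENCODE release 29 basic transcripts, 0 exonic bases are shared in either pair, and the part of intronic or unannotated reads was not tested. These transcripts hold 2136 exonic bases of BECN1 and 4742 of ATG14, beside 6414 and 5025 in the deposited table. The exons behind the deposited counts were therefore not fully checked. In the same complex, AMBRA1 shares 498 bases with an unnamed gene on the same strand. That gene was at 48.6 FPKM in siNC and 44.6 in siUSP43 (log2 fold change -0.15, not passed). The 2 genes share 0 exonic bases in GENCODE release 29, and the part of its reads in the AMBRA1 values was not tested.

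Within the WIPI family, WIPI1 fell and WIPI2 rose. WIPI1 (chromosome 17, 68420948 to 68457513, minus strand), a reader of phosphatidylinositol 3-phosphate, was at 5.74, 5.94 and 5.10 FPKM in siNC and at 3.96, 4.21 and 3.70 in siUSP43. All siUSP43 values were lower, with the largest fall among the tested members, a log2 fold change of -0.52 (SE 0.08, adjusted p = 2.44e-04). WIPI2, the paralog that recruits ATG16L1 to the membrane, was at 9.60, 8.62 and 9.17 FPKM in siNC and at 12.49, 11.93 and 11.62 in siUSP43. It rose without overlap of the groups, by 0.38 (SE 0.05, adjusted p = 9.06e-05). The ratio of WIPI2 to WIPI1 was 1.67, 1.45 and 1.80 in siNC and 3.15, 2.83 and 3.14 in siUSP43. The further family members WDR45 (WIPI4) and WDR45B (WIPI3) fell, with log2 fold changes of -0.35 and -0.55, so WIPI2 was the family member that rose and the other three fell. ATG2A, a lipid transfer protein, had -0.20 (adjusted p = 0.0167), and lost this call under 6 of 14 alternatives (no filter, the replicate block, and without libraries 1 or 3 of siNC or 1 or 2 of siUSP43). ATG2B had 0.11 (interval -0.07 to 0.29). ATG9A, the lipid scramblase of the seed vesicles, had -0.03 (interval -0.17 to 0.10).

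Of the 6 genes of the conjugation machinery 3 rose, 0 fell and 3 did not pass, beside 56.1% called of all tested genes. ATG10 (chromosome 5, 81972023 to 82276857, plus strand), the E2-like enzyme that joins ATG12 to ATG5, was at 1.65, 1.70 and 1.64 FPKM in siNC and at 2.76, 2.51 and 2.36 in siUSP43. The siNC libraries were nearly equal and all siUSP43 libraries were above them, a log2 fold change of 0.60 (SE 0.09, adjusted p = 1.35e-04) on 257 to 449 counts per library. ATG10 shares 3538 bases with RPS23, a ribosomal protein gene on the opposite strand at 183 FPKM in siNC and 173 in siUSP43 (log2 fold change -0.10, not passed). The pair shares 0 exonic bases in GENCODE release 29, where ATG10 has 4436 exonic bases, beside 5445 in the deposited table. The part of RPS23 reads in the ATG10 values was not tested. ATG3, the E2-like enzyme for Atg8 proteins, rose by 0.24 (SE 0.05; 12.8 ± 0.297 and 15.3 ± 0.269 FPKM, SD, n = 3 each; adjusted p = 8.58e-04). The ubiquitin-like ATG12 rose by 0.14 (SE 0.04, adjusted p = 0.0155), and this call ended with the replicate block, without the second siNC library and without the third siNC library. ATG7, the E1-like enzyme for both conjugates, had 0.11 (interval -0.03 to 0.24), ATG5 0.12 (-0.02 to 0.25) and ATG16L1, which places the ATG12-ATG5 conjugate on the membrane, -0.10 (-0.23 to 0.03). None of these 3 passed, although the FPKM values of ATG5 and ATG7 in siUSP43 all lay above those in siNC. In GENCODE release 29, ATG7 shares 32.2% of its exonic bases with VGLL4 on the opposite strand, which rose by 0.50. The ATG7 value is therefore uncertain without strand information. Such overlap covers 8.72% of the exonic bases of ATG12 there (378 bases, with AP3S1, log2 fold change 0.11). By the coordinates of the deposited table, ATG12 and AP3S1 share only 246 bases, so the 2 annotations differ.

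The 4 ATG4 genes encode the cysteine proteases that trim Atg8 proteins before conjugation and release them afterwards. In the main fit 2 rose and 2 fell, which is 100% called, beside 56.1% of all tested genes. Only the call of ATG4A held in all 14 alternatives. Without the second siNC, the third siNC or the third siUSP43 library, 1 rose and 1 fell. ATG4A was at 3.86, 3.64 and 4.29 FPKM in siNC and at 5.15, 5.31 and 4.79 in siUSP43, and rose without overlap by 0.35 (SE 0.09, adjusted p = 0.00564). ATG4B, the broadest acting of the 4, was at 7.32, 7.52 and 7.73 FPKM in siNC and at 6.89, 6.83 and 6.02 in siUSP43. Its siUSP43 values were all lower, with -0.21 (SE 0.07, adjusted p = 0.0165), and the call ended without the third siNC library. ATG4D was at 4.47, 5.08 and 4.23 against 4.20, 3.54 and 3.37 FPKM, with -0.33 (SE 0.11, adjusted p = 0.0261). Its groups nearly touched, 17.5% of its exonic bases are shared with KRI1 on the opposite strand (log2 fold change -0.13), and the call was lost without the second siNC, the second siUSP43 or the third siUSP43 library. ATG4C had 0.24 (SE 0.09, adjusted p = 0.0454), with overlapping groups and a call lost under 7 of 14 alternatives (limma at both pseudocounts, the replicate block, and without libraries 2 or 3 of siNC or 1 or 3 of siUSP43). The summed level of the 4 genes was 21.3 ± 0.276 FPKM in siNC and 21.7 ± 0.613 in siUSP43 (SD, n = 3 each), while the share of ATG4A went from 18.4 ± 1.71 to 23.5 ± 1.07% and that of ATG4B from 35.3 ± 1.42 to 30.4 ± 1.68%.

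**Figure D2:**
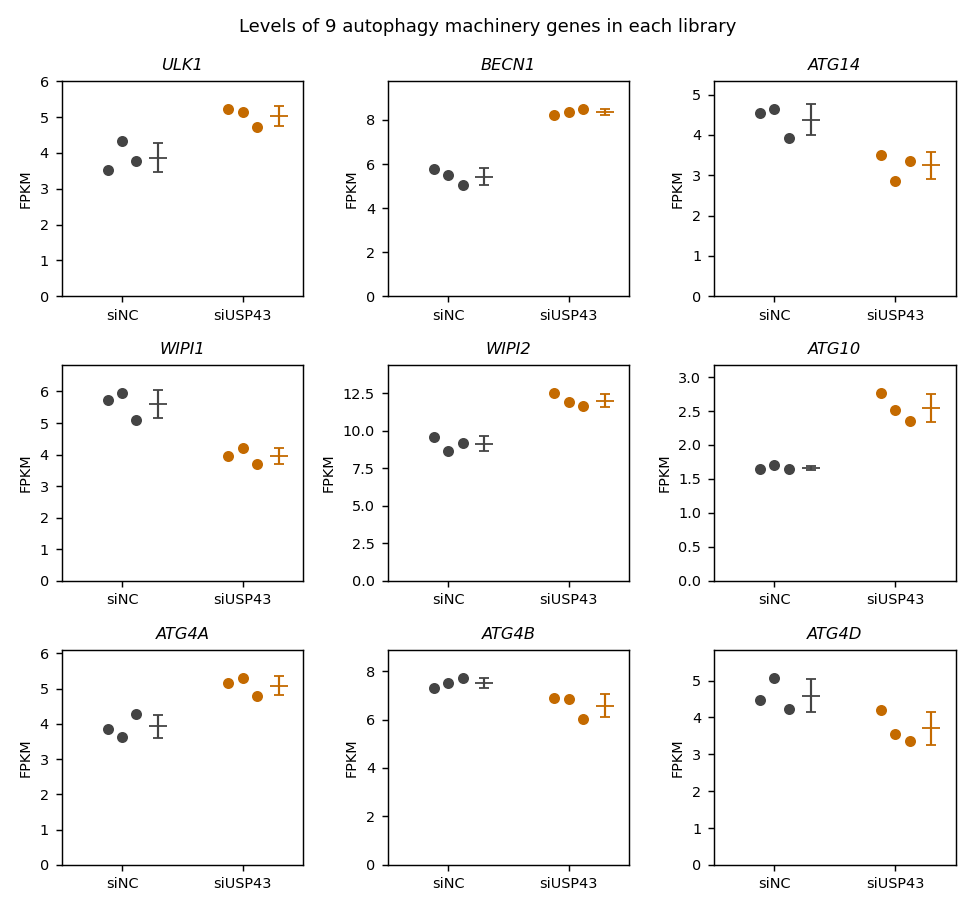
FPKM in each library of 9 autophagy machinery genes (points; 3 siNC in grey, 3 siUSP43 in orange), with mean and SD beside them. The 9 genes are called members picked for display, and ATG4C, called with overlapping groups, is not shown. In all 9 panels the groups do not overlap, which follows in part from that choice. Of all tested genes, called or not, 62.2% do not overlap. ULK1, BECN1, WIPI2, ATG10 and ATG4A are higher in siUSP43 and ATG14, WIPI1, ATG4B and ATG4D are lower.

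The Atg8 genes, which encode the proteins attached to the autophagosome, did not pass the test. MAP1LC3B, the LC3 gene whose lipidated protein is the usual marker of autophagosomes (chromosome 16), was at 25.34, 24.01 and 24.86 FPKM in siNC and at 26.10, 25.72 and 25.99 in siUSP43. The siUSP43 values were all slightly higher, but the log2 fold change was 0.05 with an interval from -0.04 to 0.15 (adjusted p = 0.338). GABARAP was at 21.73, 20.82 and 23.19 against 24.87, 27.79 and 22.48 FPKM. The third siUSP43 library lay within the siNC range, the log2 fold change was 0.17 (adjusted p = 0.0841), and it passed without that library, with 0.25, and without a filter on low values. GABARAPL1 had 0.08 (interval -0.03 to 0.20) and GABARAPL2 -0.12 (interval -0.25 to 0.01). MAP1LC3A was listed at 0.00 to 0.15 FPKM, on 0 to 5 counts per library, and was not tested.

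Shares within the family were also compared. Of the summed FPKM of the 5 Atg8 genes, MAP1LC3B held 32.7 ± 0.759% in siNC and 32.6 ± 1.66% in siUSP43 (SD, n = 3 each). GABARAP held 28.9 ± 1.1 and 31.3 ± 1.9%, GABARAPL1 16.0 ± 0.325 and 16.3 ± 0.244%, and GABARAPL2 22.3 ± 1.1 and 19.7 ± 0.0578%. The GABARAPL2 share ran from 21.4 to 23.5% in siNC and from 19.7 to 19.8% in siUSP43, so that the groups did not overlap. Its FPKM values did overlap, at 16.16, 17.53 and 16.88 in siNC and 15.70, 16.45 and 15.06 in siUSP43. Shares of a sum depend on each other, and no background was computed for them.

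Of the 5 cargo receptors 4 rose and 0 fell, with a median log2 fold change of 0.25, beside 28.0% higher and a median of -0.01 for all tested genes. CALCOCO2 (NDP52; chromosome 17, 48831018 to 48866522, plus strand), a receptor for bacteria and damaged mitochondria, was at 10.37, 10.13 and 10.72 FPKM in siNC and at 13.65, 13.03 and 13.96 in siUSP43. The groups were clearly apart, with a log2 fold change of 0.36 (SE 0.05, adjusted p = 5.88e-05). NBR1, a receptor for ubiquitinated aggregates and peroxisomes (chromosome 17, 43170481 to 43211689, plus strand), was at 17.40, 16.83 and 16.03 FPKM in siNC and at 20.19, 20.41 and 21.75 in siUSP43. Every siUSP43 value was higher, and the log2 fold change was 0.29 (SE 0.05, adjusted p = 2.93e-04). An unnamed gene on the opposite strand, which shares 2.59% of the exonic bases of NBR1 in GENCODE release 29, fell by 0.55. OPTN (optineurin), a ubiquitin-binding receptor in mitophagy, went from 24.50, 24.43 and 24.45 FPKM to 29.60, 29.35 and 28.69. Its siNC libraries were nearly identical, and the log2 fold change was 0.24 (SE 0.04, adjusted p = 4.62e-04). TAX1BP1, a relative of CALCOCO2, rose by 0.25 (SE 0.05, adjusted p = 9.74e-04), while JAZF1, which overlaps it on the opposite strand, fell by 0.65. These 4 calls held in all 14 alternatives.

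SQSTM1 (p62), the most abundant of these 5 receptors and the prototype of the class, was at 55.43, 55.18 and 57.35 FPKM in siNC and at 60.81, 64.42 and 57.09 in siUSP43. The third siUSP43 library lay below the highest siNC library, and the log2 fold change was 0.10 (interval -0.01 to 0.21, adjusted p = 0.108). Without that library SQSTM1 passed, with 0.15. In GENCODE release 29, 39.8% of its 3476 exonic bases are shared with MRNIP on the opposite strand. MRNIP was at 2.27 FPKM in siNC and 2.03 in siUSP43, and the deposited table gives SQSTM1 7535 exonic bases. The summed FPKM of the 5 receptors was 119.4, 117.7 and 119.6 in siNC and 137.4, 140.7 and 135.6 in siUSP43. SQSTM1 held 47.1 ± 0.8% of that sum in siNC and 44.1 ± 1.86% in siUSP43 (SD, n = 3 each).

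**Figure D3:**
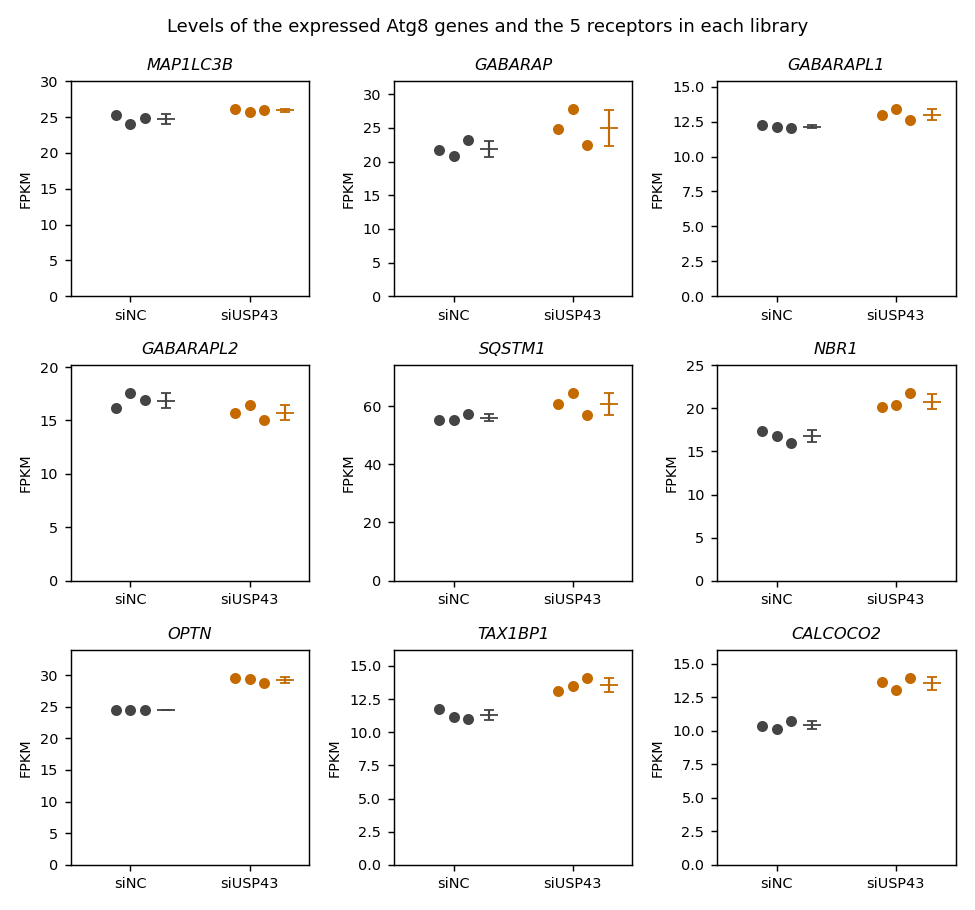
FPKM in each library of the 4 Atg8 genes above the filter and the 5 receptors (points; 3 siNC in grey, 3 siUSP43 in orange), with mean and SD beside them. NBR1, OPTN, TAX1BP1 and CALCOCO2 are higher in all siUSP43 libraries, and so are MAP1LC3B and GABARAPL1, which did not pass the test. GABARAP, GABARAPL2 and SQSTM1 overlap between groups. Of all tested genes, 62.2% do not overlap.

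Promoter sequences were examined because some members of the same complex, such as BECN1 and ATG14, moved apart. A further reason was that TFEB, a regulator of autophagy and lysosome genes, binds a palindrome around CACGTG. RefSeq windows on GRCh38.p14, from 250 bases before to 50 after each start, were found for 32 of the 36 genes (40 windows). The full TFEB palindrome (the CLEAR element, CACGTG with GT directly before it and AC directly after it) was in 0 of the 40 windows and in 0.353% of all 35116 windows, searched on both strands. CACGTG was in the windows of 2 genes, ATG3, which rose, and ATG14, which fell, that is in 5.0% of the member windows beside 7.26% of all. The 4 E2F octamers TTTCCCGC, TTTGGCGC, TTTCGCGC and TTTGCCGC, searched since the title of the series names E2F1, were in 1 window, that of ATG2A (2.5% beside 3.31%). TGACNNNGC, the core of the antioxidant response element, was in the windows of ATG101, MAP1LC3B and CALCOCO2 (7.5% beside 13.3%), and of these 3 genes CALCOCO2 rose. Windows of 4 of these genes are shown 5′ to 3′ on the gene's strand, with the matched letters in capitals: CACGTG in ATG3 (chr3:112561913-112562212, minus strand) and ATG14 (chr14:55411781-55412080, minus strand), the E2F octamer in ATG2A (chr11:64917160-64917459, minus strand) and the reverse complement of TGACNNNGC in CALCOCO2 (chr17:48830785-48831084, plus strand).
ATG3: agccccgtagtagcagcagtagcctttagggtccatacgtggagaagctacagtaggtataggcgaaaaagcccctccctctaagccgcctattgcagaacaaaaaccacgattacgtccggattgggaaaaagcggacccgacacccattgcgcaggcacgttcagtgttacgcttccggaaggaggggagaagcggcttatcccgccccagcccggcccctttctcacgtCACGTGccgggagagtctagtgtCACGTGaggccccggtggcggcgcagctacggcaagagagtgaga
ATG14: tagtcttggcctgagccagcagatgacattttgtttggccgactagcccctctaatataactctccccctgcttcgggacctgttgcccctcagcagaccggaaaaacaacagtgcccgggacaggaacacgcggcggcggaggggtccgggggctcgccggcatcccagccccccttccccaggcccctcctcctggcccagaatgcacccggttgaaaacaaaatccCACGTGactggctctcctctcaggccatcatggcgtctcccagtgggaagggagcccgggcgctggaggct
ATG2A: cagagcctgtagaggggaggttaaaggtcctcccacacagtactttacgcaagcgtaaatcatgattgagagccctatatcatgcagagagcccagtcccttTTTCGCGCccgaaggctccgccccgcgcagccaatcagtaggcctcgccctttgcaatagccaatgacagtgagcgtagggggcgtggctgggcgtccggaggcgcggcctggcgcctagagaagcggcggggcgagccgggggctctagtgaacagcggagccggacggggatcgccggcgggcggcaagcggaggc
CALCOCO2: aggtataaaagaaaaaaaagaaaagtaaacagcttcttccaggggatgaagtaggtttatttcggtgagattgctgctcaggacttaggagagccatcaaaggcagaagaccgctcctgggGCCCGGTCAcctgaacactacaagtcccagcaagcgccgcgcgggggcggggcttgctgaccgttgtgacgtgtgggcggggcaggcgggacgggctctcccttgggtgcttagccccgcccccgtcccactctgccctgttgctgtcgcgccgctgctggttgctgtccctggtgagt
In ATG3, CACGTG begins 18 bases before the start and again at base 6 after it. In ATG14 it begins 21 bases before the start. These 6 letters lay near the start of a gene that rose and of a gene that fell, and their part in either change was not tested.

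The 3′ untranslated regions (UTRs) were searched for GGATCCA and GATCCAA, heptamers that an earlier analysis of these same fold changes had found more often in genes that fell. Among tested genes with an annotated 3′ UTR of at least 50 bases, a heptamer was in 17.6% of those that fell, 8.64% of those that rose and 9.27% of those that did not pass. The choice of letters from these same data set the direction of this difference, and UTR length was not held equal. It was in 4 of the 34 tested autophagy genes (11.8%, beside 11.5% of all such genes), namely ATG14, which fell, ATG13, which rose, and PIK3C3 and ATG5, which did not pass. The labels give no duplex sequence, so whether these letters match a transfected duplex was not tested. The sites in ATG14 (base 2693 of the UTR) and ATG13 (base 966) are shown with 8 bases on each side, the heptamer in capitals.
ATG14 site: tttgcactGGATCCAccctgtaa
ATG13 site: gacagcgaGATCCAAgaagaggg
WIPI1, ATG2A, ATG4B and ATG4D, the other members that fell, did not carry the heptamers in the transcripts searched.

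Genes around the core pathway, taken from 5 lists chosen by function, changed in both directions as well. Of 73 genes 66 were tested, of which 13 rose and 20 fell (19.7% and 30.3%, beside 28.0% and 28.1% of all tested genes), with a median log2 fold change of -0.05. Other core and membrane genes mostly fell, 7 of 9 tested with 1 that rose and a median of -0.50. ATG16L2, a paralog of ATG16L1, fell from 1.82 ± 0.0551 to 0.990 ± 0.147 FPKM (SD, n = 3 each), by 0.89 on the log2 scale (SE 0.10). With limma on log2(FPKM + 1) it fell by 0.50. WDR45B and VMP1 fell by 0.55 and 0.54. VMP1 and TMEM41B encode lipid scramblases of the endoplasmic reticulum that act in autophagosome formation, and TMEM41B rose by 0.65 (SE 0.07, adjusted p = 7.32e-06). TMEM41B was at 7.85, 7.44 and 7.10 FPKM in siNC and 12.26, 10.94 and 12.24 in siUSP43, whereas VMP1 was at 36.23, 35.97 and 35.35 and at 25.33, 24.69 and 24.69. The pair therefore moved in opposite directions, each without overlap of the groups. TP53INP1 and TP53INP2, which bind Atg8 proteins, both fell by 0.50.

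Receptors for mitophagy, turnover of the endoplasmic reticulum and other cargo had 2 genes that rose and 3 that fell of 15 tested, with a median of -0.03. This is 33.3% called, beside 56.1% of all tested genes. ATL3, an atlastin of the endoplasmic reticulum, rose by 0.55 (SE 0.04) and BCL2L13, a mitochondrial receptor, by 0.46 (SE 0.05). BNIP3, a hypoxia-induced mitophagy receptor, fell from 47.5 ± 1.31 to 33.2 ± 0.983 FPKM (SD, n = 3 each), by 0.53 (SE 0.05, adjusted p = 1.71e-06), while its paralog BNIP3L had -0.05 (interval -0.15 to 0.06). CALCOCO1 and TOLLIP fell by 0.49 and 0.46. CALCOCO1, a paralog of CALCOCO2 and TAX1BP1, thus fell while both of those genes rose.

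Genes of autophagosome fusion with the lysosome had 4 higher and 3 lower of 14, with a median of 0.02. These are 28.6% and 21.4%, near the 28.0% higher and 28.1% lower of all tested genes. EPG5, a tether, rose by 0.69 (SE 0.06; 0.48 with limma on log2(FPKM + 1)) and VPS33A, a subunit of the HOPS tethering complex, by 0.48 (SE 0.06). TECPR1 fell by 0.60 (SE 0.07; by 0.38 with limma on log2(FPKM + 1)) and VPS11, another HOPS subunit, by 0.48 (SE 0.07). The autophagosomal SNARE gene STX17 had 0.07 (interval -0.08 to 0.23), and its partner SNAP29 rose by 0.30.

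Of 24 genes of the nutrient-sensing kinases 5 rose and 7 fell, with a median of -0.09. These are 20.8% and 29.2%, beside 28.0% and 28.1% of all tested genes. These counts moved with single libraries: 3 were higher without the first or second library of either group, and 3 were lower without the first siNC library. There were 4 lower without the second siNC or the third siUSP43 library, and 4 with limma or the replicate block. TSC2, an inhibitor of mTORC1 signalling and among the 7, had -0.15 (adjusted p = 0.0429) and lost its call under 12 of 14 alternatives. TSC1, also among the 7, had -0.27 (edgeR adjusted p = 0.00242) without overlap of the groups, and kept its call in all 14 alternatives. MTOR, the kinase that restrains ULK1, was at 5.33, 5.66 and 5.18 FPKM in siNC and at 3.36, 3.34 and 3.73 in siUSP43. All siUSP43 values were lower, with a log2 fold change of -0.65 (SE 0.06, adjusted p = 3.36e-06). MLST8, another mTOR subunit, fell by 0.30, with overlapping groups and a call lost under 6 of 14 alternatives. PRKAA2, the gene of the AMPK α2 catalytic subunit, was at 1.66, 1.48 and 1.43 FPKM and at 3.14, 2.91 and 3.14, so that every siUSP43 library was well above siNC. It rose by 0.99 (SE 0.07, adjusted p = 5.28e-07; 0.69 with limma on log2(FPKM + 1)). PRKAA1, the gene of the α1 subunit and the more abundant of the pair, had -0.17 (adjusted p = 0.0456), but passed under only 4 of 14 alternatives. RRAGD, a Rag GTPase gene, rose by 0.46 (SE 0.08). Of the TFEB family and the receptor kinases, PINK1, which starts mitophagy, rose by 0.30 (SE 0.08, adjusted p = 0.00533). TFE3 had 0.04 (interval -0.07 to 0.15), MITF 0.14 (interval -0.07 to 0.35) and TBK1 0.09 (interval -0.05 to 0.23), of which TBK1 passed as higher without the second siUSP43 library. TFEB was below the filter, at 0.477 FPKM in siNC and 0.403 in siUSP43.

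**Figure D4:**
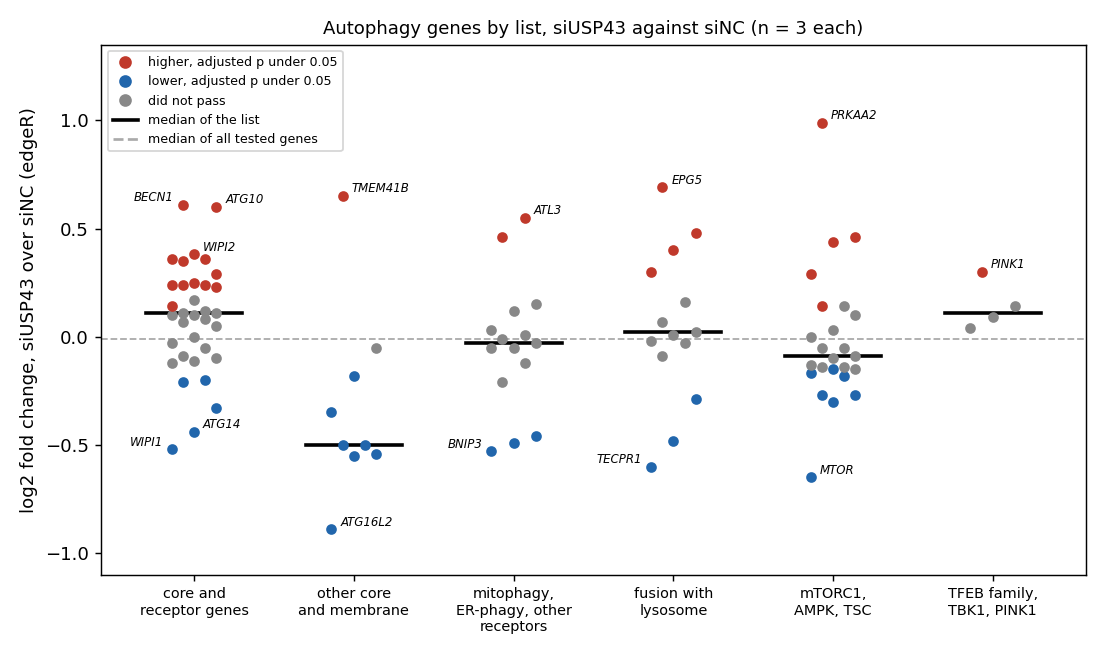
Log2 fold change, siUSP43 over siNC (edgeR, n = 3 each), of each tested gene of the core and receptor set and of the 5 related lists. Black bars mark list medians, with -0.50 for other core and membrane genes and 0.11 both for the core and receptor genes and for the TFEB family list, and the dashed line marks the median of all tested genes at -0.01.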

How the data were processed

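Per the submitters' processing notes, cutadapt 2.6, HISAT2 2.2.1 and the GRCh38 build were used for the reads. Not given in the sources used here are the read counter, annotation release, strand setting and handling of multiply mapped reads. The authors deposited raw counts and FPKM per gene and library, with exonic gene sizes, per the file headers. The 36 members, their 7 groups and the 5 related lists were chosen by function with earlier results of these data known.

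Counts were tested with edgeR 4.0.16 in R 4.3.3 (quasi-likelihood, TMM, group as the only term, n = 3 against 3) for USP43 and all genes whose FPKM averaged 1 or more over the 6 libraries. Calls are at a two-sided Benjamini-Hochberg adjusted p under 0.05. Intervals are 95% from the fit. Ratios and shares come from FPKM, so levels of different genes are compared per length. Values in every library are given for called members with an absolute log2 fold change of at least 0.5, for ULK1, BECN1, MAP1LC3B, GABARAP and SQSTM1, and, chosen after their values were seen, for further members. Up to 2 called genes per direction of each related list were to be named, and others named beside them were chosen after their values were seen. The fits were also run on simulated counts with far fewer changed genes than were called here, so that run does not cover changes this broad. Alternatives were RLE and library-total scaling, no filter, filterByExpr, DESeq2 1.42.0, limma 3.58.1 on log2(FPKM + 1) and log2(FPKM + 0.1), a replicate block and each library left out.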

Additional observations from a re-analysis of the deposited data

How the results depend on the processing

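Each tested member was refitted under 14 alternatives, which gave 476 values, of which 452 kept their side of the threshold, 20 lost a call, 4 gained one and 0 reversed. Of the 18 called members 13 kept their call in all 14 alternatives. ATG2A, ATG4C, ATG12, ATG4B and ATG4D did not, and for ATG4B and ATG4D the call ended only when a library was left out. RB1CC1, GABARAP and SQSTM1 passed without the third siUSP43 library. Leaving out 1 library at a time gave 11 to 14 members higher and 3 to 5 lower, with 3 lower without the third siNC library or the second siUSP43 library. Over all tested genes these fits gave 2710 to 3284 higher and 2707 to 3266 lower, over the related lists 11 to 14 higher and 16 to 20 lower, and for USP43 a log2 fold change of -1.57 to -1.27, while limma on log2(FPKM + 1) gave -0.80. Whether same-numbered libraries were paired is not stated. Deviations of same-numbered libraries correlated at -0.0128, -0.126 and -0.261, and those of differently numbered ones at -0.164 to 0.27. The deviations within a group of 3 depend on each other, so these values cannot decide whether the numbers pair the libraries. With the replicate block 11 members were higher and 4 lower, ATG2A, ATG4C and ATG12 losing their calls, with 2775 and 2841 among all tested genes, 12 and 16 in the related lists, and -1.41 for USP43. In DESeq2 13 members were higher and 5 lower. The shares of the ATG4 genes and their alternatives were added after the data were seen. The tested members had a median of 1270 counts per library, and MAP1LC3A, at 0 to 5 counts, could not be compared.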

Other observations

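Near-identical copies of members were also listed. MAP1LC3B2, a near copy of MAP1LC3B, was at 0.65, 0.77 and 0.82 FPKM in siNC and 1.01, 0.90 and 0.98 in siUSP43, on 36 to 58 counts per library, and was below the filter. ATG12P1, a processed copy of ATG12, was at 1.00, 0.82 and 0.65 FPKM in siNC and 1.60, 1.98 and 1.11 in siUSP43, a log2 fold change of 0.88 (SE 0.36, edgeR adjusted p = 0.0552) on 8 to 21 counts.

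Libraries deviated from their group with gene size, and the third siUSP43 library did so most. Across the 34 tested members, its deviation from the mean of the other siUSP43 libraries on log2(FPKM + 1) correlated with log2 exonic size at r = 0.50 (Spearman 0.43), against -0.41 for the second siUSP43 library and -0.26 for the first. Over all 11417 tested genes the values were 0.24, -0.19 and -0.09 (Spearman 0.38, -0.34 and -0.16). The siNC libraries lay between -0.13 and 0.20 across members, with a Spearman value of 0.33 for the first siNC library. Over all tested genes they lay between -0.16 and 0.09, with a Spearman value of -0.28 for the third siNC library. The points share libraries and the deviations within a group depend on each other, so these values are a description. Of the 3 members that passed without that library, RB1CC1 (7613 exonic bases) was highest in it, while GABARAP (1951) and SQSTM1 (7535) were lowest in it among the siUSP43 libraries. The part of this pattern in those values was not tested.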
